A study of Mus musculus with 8 samples.

Results

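The 10 genes described here encode cytokine receptor subunits, among them the common β chain *Csf2rb* and gp130 (*Il6st*), together with the interleukin 1 receptor antagonist *Il1rn*. They were *Csf2ra*, *Csf2rb*, *Csf2rb2*, *Il6ra*, *Il6st*, *Il4ra*, *Il13ra1*, *Il10rb*, *Il17ra* and *Il1rn*. Their members on the array were all spots other than controls whose gene name equals one of these symbols, which gave 10 of the 37074 gene names and 18 of the 56605 probes on the array. Gene expression had been measured in C57BL/6J mice, 12 weeks old and male by the study's methods, in tissue labelled as BAT and taken from interscapular fat. The Co mice had received 100 μL of saline intravenously and the Pg mice sonicated *P. gingivalis* in the same volume, and the tissue was taken 18 h later. The labels print the dose as 108 CFU, in which the study's methods write the 8 as an exponent of 10. Each group had 4 mice with 1 one-color Agilent array each, and no gene had been altered in either group.

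Class I cytokine receptors work as pairs or larger complexes. A private α chain binds the ligand, and a shared chain carries the signal through JAK kinases to STAT proteins. The common β chain serves GM-CSF, IL-3 and IL-5, and mice also have *Csf2rb2*, a near copy that serves IL-3 alone. gp130 serves IL-6, IL-11, LIF, oncostatin M and other ligands, and is made by nearly all cells, whereas the IL-6 receptor α chain is found on fewer cell types. IL-4 receptor α pairs with the common γ chain or with IL-13 receptor α1. IL-10 receptor β is shared by IL-10, IL-22 and the type III interferons, and IL-17 receptor A by the IL-17 family, whose signal runs through Act1 and TRAF6 instead of JAKs.

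The number of probes well above background ran from 31132 to 34063 on the Pg arrays and from 34760 to 35831 on the Co arrays. Per the file headers all 8 arrays lay on 1 slide, with the Co arrays in a row of their own and the Pg arrays in the other, so the slide row and the group cannot be told apart. Of 8 brown adipocyte markers 6 were well above background on all 8 arrays, but *Ucp1*, the uncoupling protein that defines the cell, and *Elovl3* were on none. All 5 adipocyte and all 8 skeletal muscle markers were, with a summed signal of the muscle markers between 1665000 and 1863000 and of the brown adipocyte markers between 468400 and 560000. The brown adipocyte sum was carried almost wholly by *Cox8b* and *Cox7a1*, with mean log2 signals of 18.0 and 17.8, and *Cidea* came next with 13.4. The missing *Ucp1* signal and the muscle markers go against a label of BAT alone, so the tissue behind the receptor values is in doubt. The study itself measured *Ucp1* and *Cidea* in BAT of both groups by RT-PCR and showed stained sections of the tissue. Whether the array failed to detect *Ucp1* transcripts that were present was not tested. The part of muscle RNA in the receptor values was not tested either. The RNA was of whole tissue, where fewer cells of a type and less RNA per cell cannot be told apart.

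The probes were 60 bases long, each spotted once, and none was saturated. *Csf2rb* had 4 probes, *Il6st* had 3, *Il6ra*, *Il4ra* and *Il1rn* had 2 each, and the other 5 genes had 1 each. Coordinates here are those of the array's own annotation, mouse build NCBI37 (mm9), and exons and UTRs were not looked up because no annotation of that build was used here. Where a gene had 2 probes that disagreed between the groups, their sequences are given because the results below turn on them. The probe of *Csf2rb* nearer the 5′ end, A_52_P664853, begins at base 1625 of the transcript. Its 60 bases cover 263 bases of the genome, chr15:78176856-78177118 on the plus strand, so that it lies across an intron. The 3′ probe, A_52_P52618, begins at base 4501 and lies in a single stretch, chr15:78181168-78181227. The 5′ probe of *Il6ra* begins at base 1208 (chr3:89680743-89680802, minus strand) and its 3′ probe at base 2475 (chr3:89674054-89674113). The 5′ probe of *Il4ra* begins at base 466 (chr7:132712550-132712609, plus strand) and its 3′ probe at base 3242 (chr7:132721137-132721196). For the 3′ probes of *Il6ra* and *Il4ra* the first 30 bases are shown, and for that of *Csf2rb* a stretch follows further on.
Csf2rb A_52_P664853: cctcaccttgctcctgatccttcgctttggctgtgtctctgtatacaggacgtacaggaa
Il6ra A_51_P415855: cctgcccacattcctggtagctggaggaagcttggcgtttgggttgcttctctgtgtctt
Il6ra A_55_P2068892: aggaccaagtgcagtaacggtagcccaaac
Il4ra A_55_P1966189: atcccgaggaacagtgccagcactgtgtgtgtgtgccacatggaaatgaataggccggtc
Il4ra A_51_P464478: cccaaagtcactgccagttacccacatatg

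*Csf2rb* and *Csf2rb2* lie side by side on chromosome 15, and the 3′ probe of *Csf2rb* resembles the single probe of *Csf2rb2* (A_51_P146753, chr15:78113126-78113185, minus strand). The closest 30 bases, from base 30 of the first probe and base 12 of the second, are shown because signal of one gene could reach the probe of the other. They match at 27 of 30 bases, and the 3 that differ are in capitals. Whether either probe binds the other transcript was not tested.
Csf2rb A_52_P52618: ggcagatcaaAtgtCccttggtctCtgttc
Csf2rb2 A_51_P146753: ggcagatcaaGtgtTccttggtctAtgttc
The 5′ probe of *Csf2rb* matched the *Csf2rb2* probe at no more than 16 of 30 bases in any such window.

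The log2 values below are background-subtracted signals that were quantile-normalized over the 8 arrays. A probe was tested with limma when it was well above background on at least 4 arrays. q is the Benjamini-Hochberg adjusted p over all 33819 probes tested, and a DEG has q under 0.1 and a fold change above 1.5. Of the 18 probes 13 were tested, from 9 genes, and *Il1rn* had none. The only DEG among the 13 was the 5′ probe of *Il6ra*, lower in Pg mice, where 1.61% of all tested probes were DEGs. It was also the only one with q under 0.1, against 7.82% of all tested probes, of which 6.00% were lower and 1.82% higher in Pg mice. Leaving out 1 array moved the DEGs over all probes from 546 to between 2 and 692, so the shares over all probes are not stable. All Pg arrays lay on the same side of all Co arrays in 2 of the 13 probes, the 5′ probes of *Il6ra* and *Il4ra*, both lower in Pg mice, against 15.8% of all tested probes. An unadjusted p under 0.05 was found for 5 of the 13, against 22.8% of all. One of these, *Il17ra*, entered the test through the Co arrays, where it was higher, and of the 12 probes above background on all 8 arrays 4 had such a p and 5 a difference below 0. The log2 difference, Pg minus Co, was above 0 for 7 probes, against 42.3% of all, and below 0 for 6, with a median of 0.10, and the median of all tested probes was −0.04. Each of these shares rests on 13 probes and is a description of them. With the brightest probe standing for a gene, none of the 9 genes tested had q under 0.1, against 6.25% of all genes. The groups overlapped for all 9, and did not for 14.3% of all genes. An unadjusted p under 0.05 (limma) was found for 3 of the 9, against 20.3% of all genes.

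**Figure D1:**
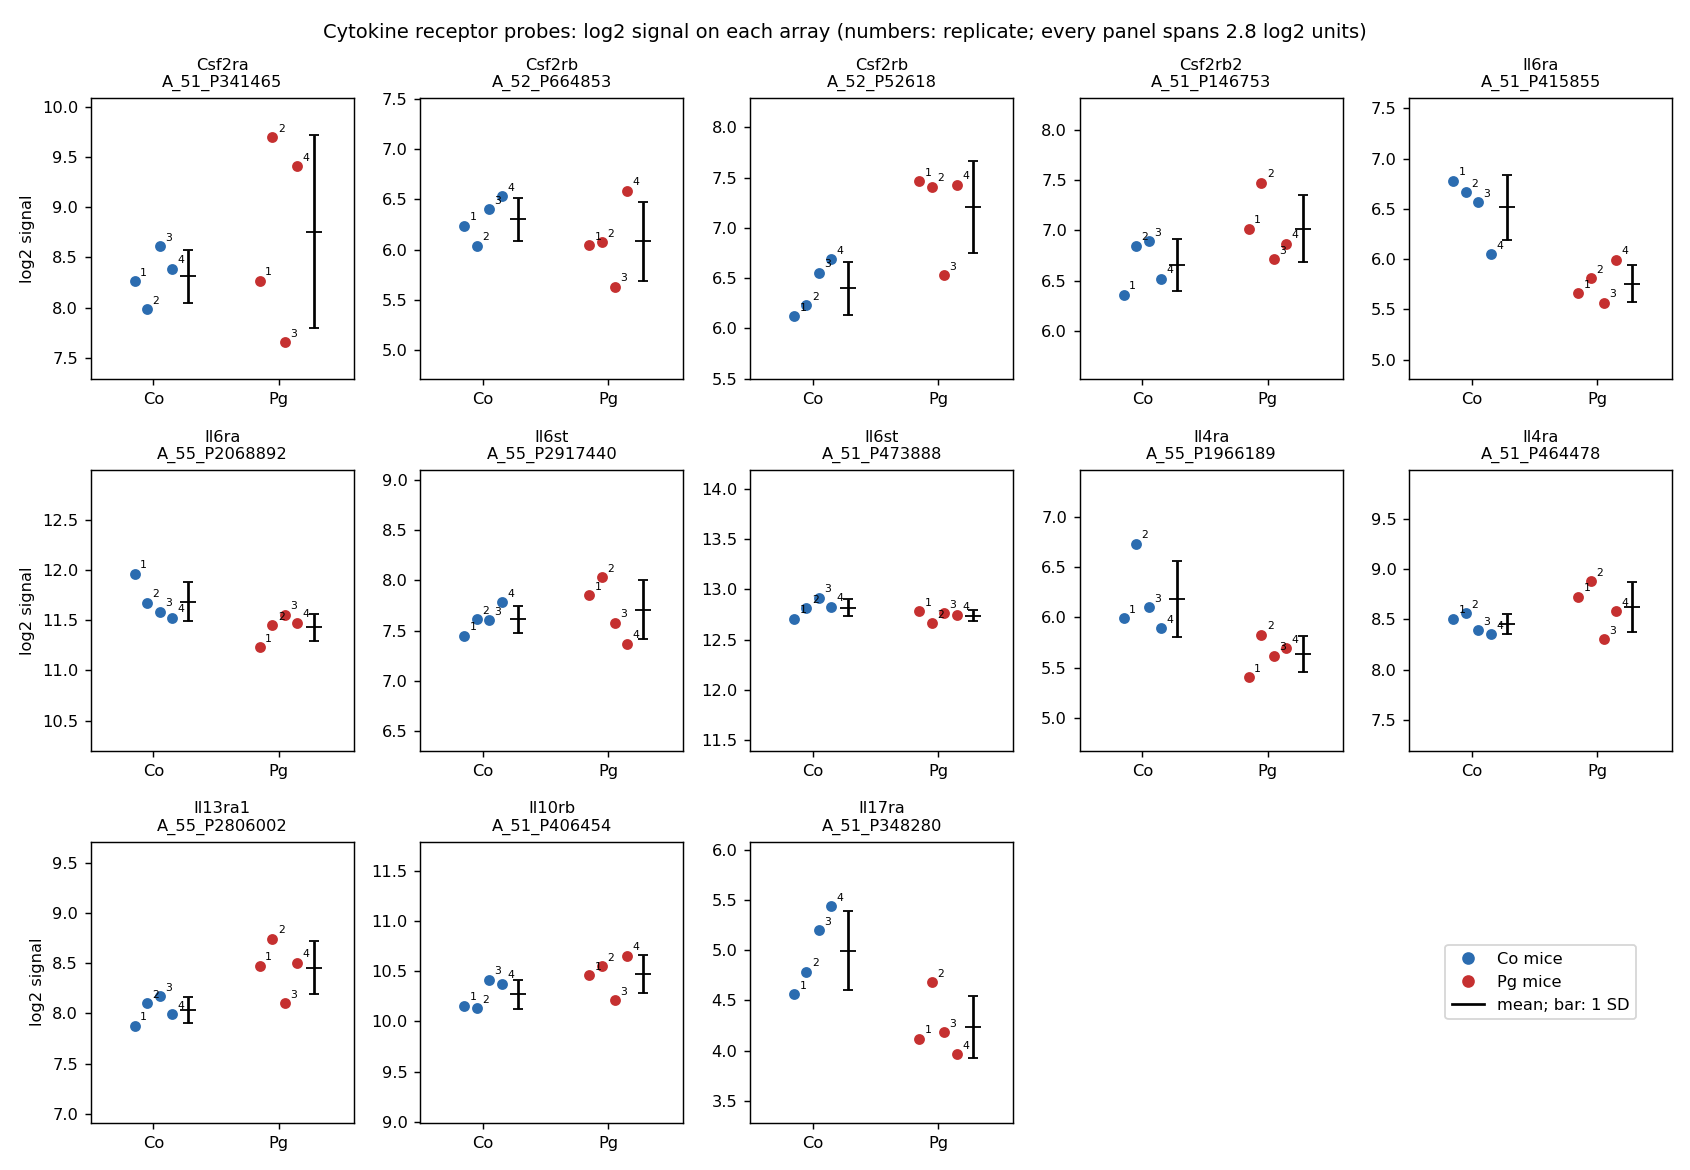
Log2 signal (y axis) of the 13 tested cytokine receptor probes on each of the 8 arrays, with Co in blue and Pg in red. Small digits are replicate numbers, and the black bar is the group mean with 1 SD. The Pg arrays of the Il6ra probe A_51_P415855 all lie below the Co arrays, and the Pg 3 array of the Csf2rb probe A_52_P52618 lies at 6.53 among the Co values.

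Among the receptors of the GM-CSF and IL-3 family, the 2 tested probes of *Csf2rb* pointed in opposite directions. The 3′ probe A_52_P52618 read 6.12, 6.23, 6.55 and 6.69 on Co arrays 1 to 4 and 7.46, 7.41, 6.53 and 7.43 on Pg arrays 1 to 4. Pg 3 lay within the Co range and the other 3 Pg arrays above it. The 5′ probe A_52_P664853 read 6.24, 6.04, 6.40 and 6.53 on the Co arrays and 6.04, 6.07, 5.63 and 6.59 on the Pg arrays. Here Pg 3 was the lowest array and Pg 4 the highest, and the groups overlapped. The 3′ probe differed by 0.81 (95% confidence interval 0.27 to 1.35, q = 0.105, limma) and the 5′ probe by −0.22 (−0.68 to 0.24, q = 0.549), with −0.07 without Pg 3 and −0.39 without Pg 4. The call for the 3′ probe turned on Pg 3, since without that array the difference was 1.04 (q = 0.0478). It was also past the threshold with the median signal (0.60, q = 0.0567) and with normexp (0.54, q = 0.0698), with an intensity trend in the fit (q = 0.0736) and over the probes above background on all 8 arrays (q = 0.0849).

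The other *Csf2rb* probes gave little. A_55_P2743485, from base 2783, is annotated with transcripts of both *Csf2rb* and *Csf2rb2*. It was well above background on Pg 4 alone, at 6.67, and read between 2.02 and 4.45 on the other 7 arrays. A_55_P2733965, designed on a cDNA clone, was above background on no array.

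*Csf2rb2* read 6.36, 6.85, 6.89 and 6.52 on the Co arrays and 7.02, 7.48, 6.71 and 6.87 on the Pg arrays. Its highest arrays were Pg 2 and Pg 1, with Pg 3 and Pg 4 inside the Co range. It differed by 0.36 (−0.07 to 0.80, q = 0.294), with 0.21 both without Pg 2 and with normexp. The gap between the 3′ probe of *Csf2rb* and this probe differed between the groups by 0.45 (exact permutation test, two-sided, p = 0.143, 0.179 after adjustment over 5 gaps), so a larger difference in *Csf2rb* than in *Csf2rb2* was not shown.

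*Csf2ra*, the α chain that binds GM-CSF, read 8.26, 7.98, 8.61 and 8.38 on the Co arrays and 8.27, 9.70, 7.66 and 9.41 on the Pg arrays. The Pg arrays lay on both sides of the Co range, with Pg 2 and Pg 4 above it and Pg 3 below it. The SD was 0.26 among Co mice and 0.96 among Pg mice, and the difference of 0.45 (−0.56 to 1.46, q = 0.579) was within that spread. It was 0.13 without Pg 2 and 0.81 without Pg 3. The summed signal of 8 macrophage markers moved in the same way. It was 11910, 8504, 14010 and 14400 on the Co arrays and 13760, 26980, 8389 and 24780 on the Pg arrays, and all 8 markers were above background on every array. Most of this sum came from *Lyz2*, with a mean log2 signal of 13.1, and *Csf1r*, with 11.1. Over the 8 arrays *Csf2ra* followed the log2 of this sum with a Pearson r of 0.973, *Il10rb* with 0.899 and the 3′ probe of *Csf2rb* with 0.768. With the log2 of the endothelial sum given at the end, r was 0.623 for *Csf2ra*, 0.841 for *Il10rb* and 0.876 for the 3′ probe of *Csf2rb*, and −0.828 for the 5′ probe of *Il6ra*. The 3′ probe of *Il6ra* had −0.73 with the endothelial sum, the 5′ probe of *Il4ra* −0.717 and its 3′ probe 0.348. *Il13ra1* followed the macrophage sum with 0.75 and the endothelial sum with 0.745, and the 5′ probe of *Csf2rb* with 0.546 and 0.125. None of the 8 macrophage genes had q under 0.1 and 6 of them had a difference above 0, with a median of 0.27. *Cd163* (−0.13, q = 0.747) and *Mertk* (−0.26, q = 0.199) had one below 0. The part of macrophage or endothelial content in these receptor values was not tested.

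Among the receptors of the IL-6 family, *Il6ra* held the only DEG and gp130 differed little. The 5′ probe of *Il6ra*, A_51_P415855, read 6.78, 6.67, 6.57 and 6.05 on the Co arrays and 5.66, 5.81, 5.57 and 5.99 on the Pg arrays. Every Pg array was below every Co array, with Co 4 and Pg 4 only a little apart. The difference was −0.76 (−1.15 to −0.37, q = 0.0658), or 1.69-fold lower in Pg mice. The 3′ probe A_55_P2068892 read 11.96, 11.67, 11.58 and 11.52 on the Co arrays and 11.23, 11.45, 11.55 and 11.47 on the Pg arrays. It pointed the same way but Pg 3 lay within the Co range, and its difference was −0.26 (−0.52 to 0.00449, q = 0.226), with −0.17 without Co 1.

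The *Il6ra* call was close to the threshold. It was kept in 3 of the 8 fits that leave out 1 array (without Co 4, Pg 3 or Pg 4), and q ranged from 0.085 to 0.144 over the 8. It was also lost with scaling to the 75th percentile (q = 0.11), without normalization (q = 0.206) and without the filter on dim probes (q = 0.109), while the direction held throughout. With normexp the difference was −0.37 (q = 0.0598) and with the median signal −0.37 (q = 0.0748), below the fold limit in both. With the median signal the 1 DEG among the probes of these genes was instead the 3′ probe of *Csf2rb*, at 0.60 (q = 0.0567).

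gp130 itself was measured by 2 tested probes. A_51_P473888, from base 4969 of the *Il6st* transcript (chr13:113296586-113296645), read 12.71, 12.82, 12.92 and 12.83 on the Co arrays and 12.78, 12.67, 12.76 and 12.74 on the Pg arrays. The groups overlapped and all 8 values lay within a narrow band. The difference was −0.08 with an interval of −0.22 to 0.07 (q = 0.50), the narrowest among the 13 probes. A_55_P2917440, from base 2978, read 7.45, 7.61, 7.61 and 7.78 on the Co arrays and 7.85, 8.03, 7.58 and 7.37 on the Pg arrays. Pg 1 and Pg 2 were above the Co range and Pg 4 below it, which gave a difference of 0.10 (−0.25 to 0.44, q = 0.737). The third probe, A_55_P2738837, was designed on a cDNA clone and was above background on no array.

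The receptors of IL-4 and IL-13 showed no change past the threshold. The 5′ probe of *Il4ra*, A_55_P1966189, read 5.99, 6.73, 6.10 and 5.89 on the Co arrays and 5.41, 5.83, 5.62 and 5.69 on the Pg arrays. All Pg arrays were below all Co arrays, Pg 2 only narrowly. The difference was −0.54 (−0.98 to −0.11, q = 0.146), and smaller with normexp (−0.28), with the median signal (−0.32) and without Co 2 (−0.36). The 3′ probe A_51_P464478 read 8.50, 8.56, 8.39 and 8.35 on the Co arrays and 8.72, 8.88, 8.30 and 8.58 on the Pg arrays. It leaned the other way, with 3 Pg arrays above the Co range and Pg 3 below it, and differed by 0.17 (−0.12 to 0.46, q = 0.456), with 0.08 without Pg 2 and 0.28 without Pg 3.

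*Il13ra1*, the partner of IL-4 receptor α in the receptor that binds both IL-4 and IL-13, read 7.88, 8.10, 8.17 and 7.99 on the Co arrays and 8.47, 8.74, 8.10 and 8.51 on the Pg arrays. As with the 3′ probe of *Csf2rb*, Pg 3 lay among the Co values and the other 3 Pg arrays above all of them. The difference was 0.42 (0.10 to 0.74, q = 0.131), and 0.54 (q = 0.0665) without Pg 3. It also passed the threshold with normexp (q = 0.0835), with the median signal (q = 0.0828) and with an intensity trend (q = 0.096).

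*Il10rb*, the shared chain of the IL-10 family, read 10.16, 10.13, 10.42 and 10.38 on the Co arrays and 10.46, 10.55, 10.21 and 10.65 on the Pg arrays. Again Pg 3 was the one Pg array inside the Co range. The difference was 0.20 (−0.06 to 0.46, q = 0.335).

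*Il17ra* was near the limit of detection. It read 4.56, 4.79, 5.20 and 5.44 on the Co arrays, all well above background, and 4.12, 4.68, 4.19 and 3.97 on the Pg arrays, of which only Pg 2 was. Pg 2 lay within the Co range and the other Pg arrays below it. The fitted difference of −0.76 (q = 0.109) is not a measured size, since 3 of the 4 Pg values were not above background and the probe was tested only because of the Co arrays. It was −0.20 (q = 0.188) with normexp and −0.22 (q = 0.136) with the median signal. Both probes of *Il1rn*, which encodes the secreted antagonist of the IL-1 receptor, were above background on none of the 8 arrays and have no fold change.

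**Figure D2:**
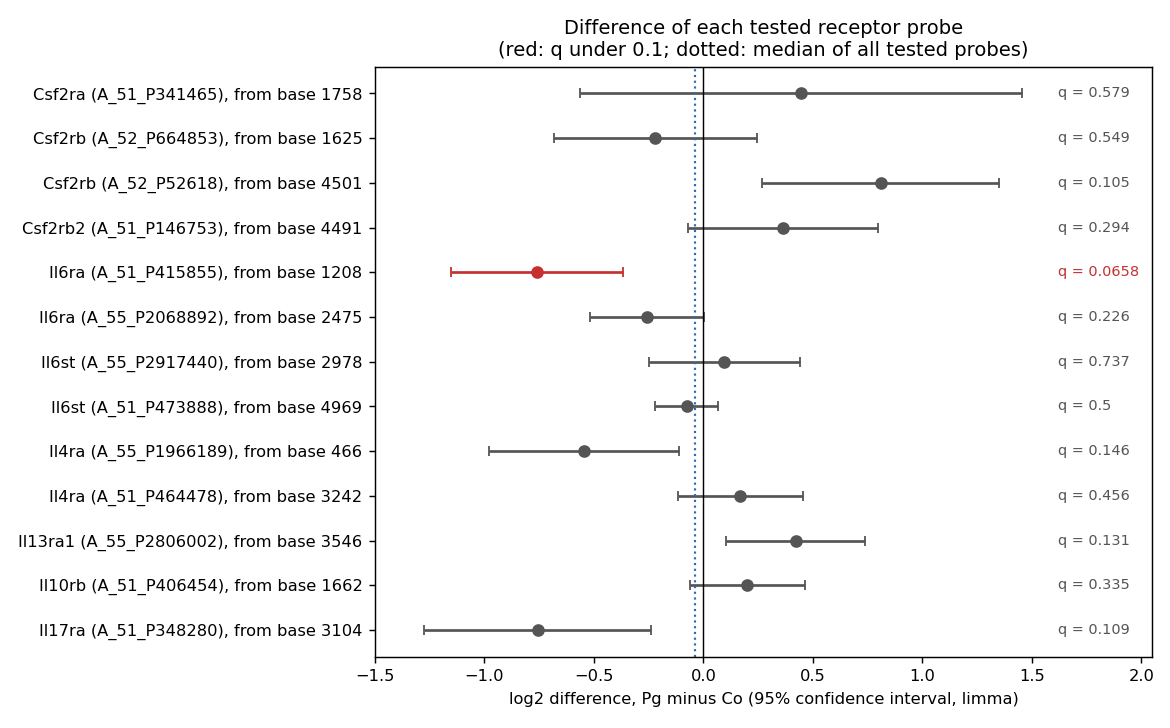
Log2 difference, Pg minus Co, of the 13 tested cytokine receptor probes (x axis) with its 95% confidence interval from limma and its q, each row naming the gene, the probe and the first base of the transcript that it covers. Only the Il6ra probe A_51_P415855, in red at −0.76, has q under 0.1, and the 2 probes of Csf2rb and of Il4ra lie on opposite sides of 0.

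Agreement between probes of 1 gene was tested on the gap between the 5′ and the 3′ probe on each array, from which the mean gap of the 8 arrays was taken. This removes the mean distance in level between the probes, but not a group difference that depends on the level. Before this step the gap on the Co arrays was between −0.19 and 0.12 in *Csf2rb* and between −2.51 and −1.83 in *Il4ra*. In *Il6ra* it was between −5.475 and −5.008 and in *Il6st* between −5.309 and −5.041. The gaps that follow are those after this step. In *Csf2rb* the gap was 0.73, 0.42, 0.46 and 0.46 on the Co arrays and −0.81, −0.73, −0.28 and −0.23 on the Pg arrays. All Co arrays were above 0 and all Pg arrays below it, Pg 3 included. The gap differed by −1.03 on the log2 scale, with p = 0.0286 in the exact permutation test (two-sided), which is the smallest that the 70 splits of 4 against 4 arrays allow, and 0.0477 after adjustment over the 5 gaps tested. Its size depended on the background step, being −0.63 with normexp and −0.67 with the median signal. In *Il4ra* the gap differed by −0.71 and in *Il6ra* by −0.50, each with the same exact p of 0.0286 and adjusted p of 0.0477. In *Il6st* it differed by 0.17 (exact permutation p = 0.371), and by 0.04 to 0.29 when 1 array was left out. The 5′ probe was the relatively lower one in Pg mice in 3 of 4 genes, near the 70.7% of transcripts over the array given below. The permutation tests compare each gap with no difference between the groups, not with the shift over the array. The *Il4ra* gap was −0.41 both with normexp and with the median signal. Without Co 2 it was −0.56 (exact permutation p = 0.0571), and without any single Pg array the *Il6ra* gap had the same p, between −0.57 and −0.40. The *Il6ra* gap did not pass the test under other processing either, with −0.14 (exact permutation p = 0.200) with normexp and −0.36 (exact permutation p = 0.0857) without normalization.

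The same direction was measured over the whole array. Of 2997 RefSeq transcripts with a pair of probes at least 500 bases apart and well above background on all 8 arrays, 70.7% had a lower gap in Pg than in Co mice, with a median of −0.13. The median gap per array was between 0.0397 and 0.08 on the Co arrays and between −0.12 and −0.0274 on the Pg arrays (exact permutation p = 0.0286). Among the 1300 transcripts with both probes at log2 8 or above the median was −0.11. Among the 471 transcripts with both probes within 1 log2 unit of each other it was −0.01, with 52.4% below 0 (exact permutation p = 0.143). A gap as low as that of *Csf2rb* was found in 0.267% of the 2997 transcripts (0.425% of the 471), as low as that of *Il4ra* in 1.33% and as low as that of *Il6ra* in 5.47%. The probes of *Il4ra* and of *Il6ra* lie more than 1 log2 unit apart, so these genes are not among the 471. Their shares were not taken over pairs matched in level. What lies behind these gaps was not tested.

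**Figure D3:**
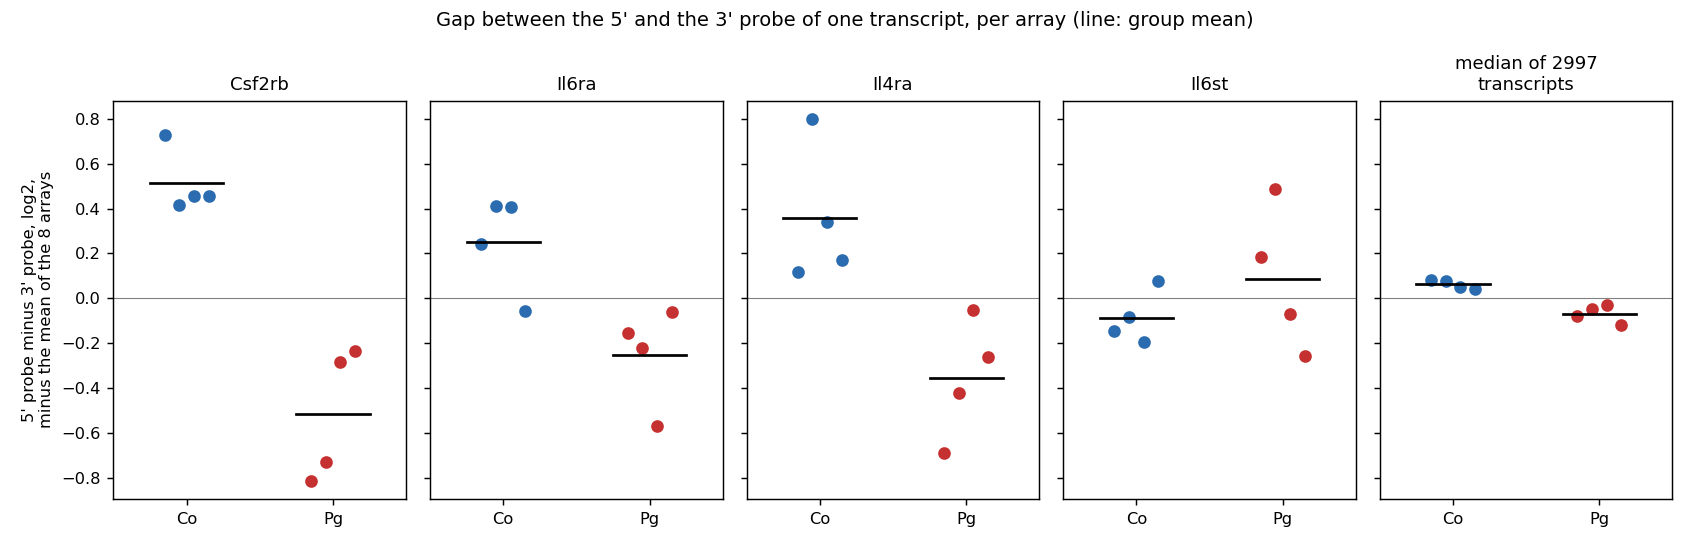
Gap between the 5′ and the 3′ probe of one transcript on each array (y axis, log2, minus the mean of the 8 arrays) for Csf2rb, Il6ra, Il4ra and Il6st, and the median over 2997 transcripts, with Co in blue, Pg in red and a line at each group mean. The group means differ by −1.03 in Csf2rb and by −0.13 in the median of all transcripts, Pg minus Co.

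Averaging the probes of a transcript merged these opposite differences in *Csf2rb* and *Il4ra*. The probes of an accession were averaged as a step chosen after seeing the data, because the deposited log2 values were taken to be such means. With this step *Csf2rb* differed by 0.29 (q = 0.447), *Il4ra* by −0.19 (q = 0.450), *Il6ra* by −0.51 (q = 0.0920) and *Il6st* by 0.01 (q = 0.960). In the deposited log2 values the *Il6ra* entry differed by −0.35 (q = 0.112) in the same limma fit.

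**Figure D4:**
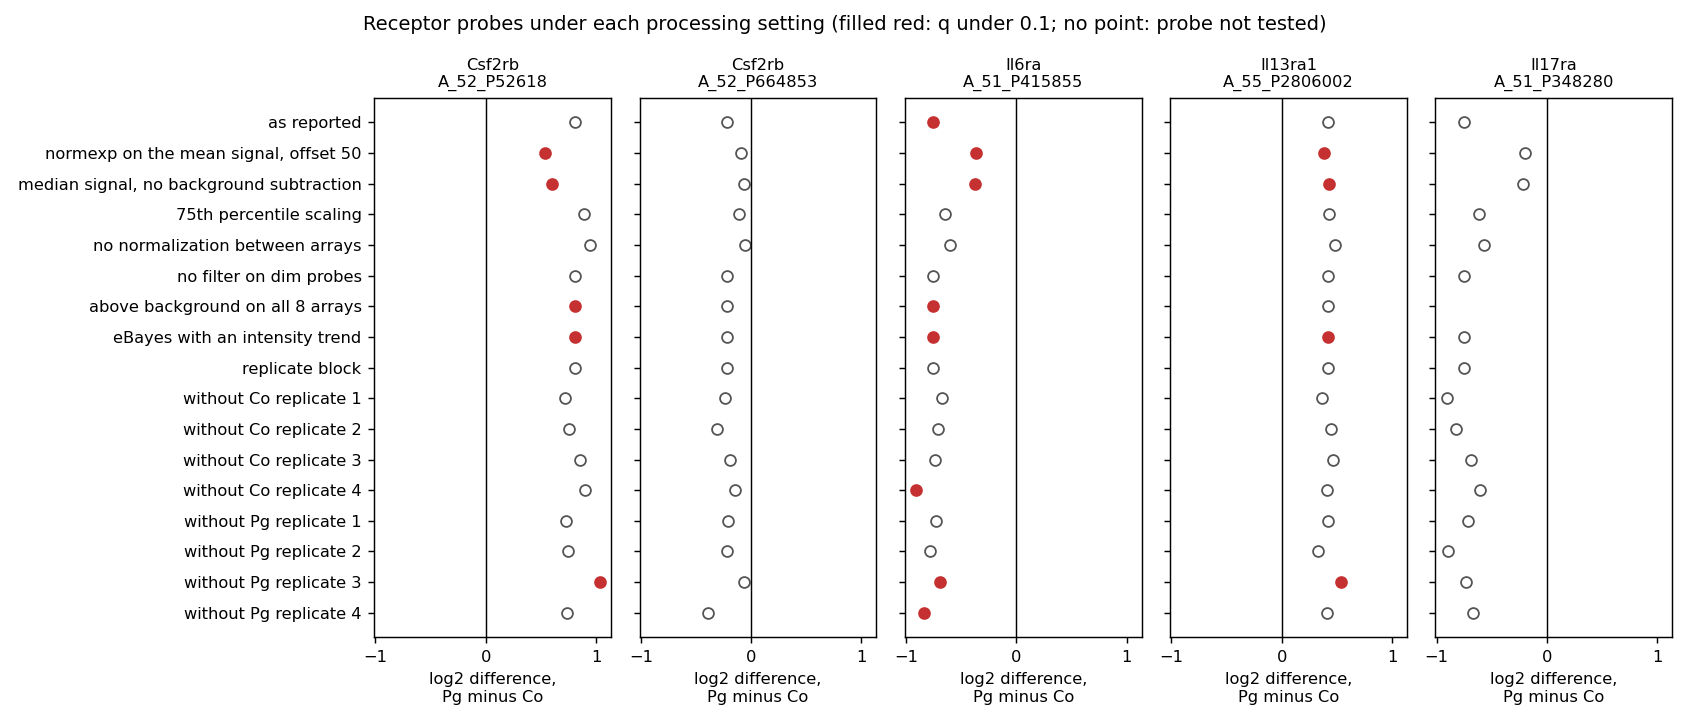
Log2 difference, Pg minus Co (x axis), of 5 receptor probes under each processing setting (rows), with filled red points for q under 0.1. The Csf2rb probe A_52_P52618 and the Il13ra1 probe stay above 0 and the Il6ra probe below 0 in every row, while the calls come and go. The Il17ra probe was tested only because of the Co arrays, so its side of 0 carries no weight.

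The receptor probes also differed in how they varied from array to array. Over the 8 arrays, as a description, the 3′ probe of *Csf2rb* followed *Il13ra1* with a Pearson r of 0.904 and *Il10rb* with 0.90, but its own 5′ probe with only 0.16. *Csf2rb2* followed *Il13ra1* with 0.912. The 2 probes of *Il6ra* followed each other with 0.783, those of *Il4ra* with −0.129 and those of *Il6st* with −0.15. These arrays share a slide, and the Pg arrays other than Pg 3 stand apart for several of these probes.

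Among 29220 probes that were above background on all 8 arrays, those most like the 3′ probe of *Csf2rb* over the 8 arrays were of *Rcor3*, a corepressor (r = 0.995), *Tbx3*, a T-box factor (0.989), *Cnppd1* (0.987), *Adgrd1*, an adhesion receptor (0.985), and *Rgs2*, a regulator of G protein signaling (0.982). For gp130 (A_51_P473888) they were *Ppil3* (0.970), AK037628 (0.969), *Sh3bp5* (0.963), *Shprh* (0.961) and *Psap* (0.960). With so many probes and 8 arrays, high values of r arise in any search of this kind.

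The wider pathway around these receptors was read from a list of 73 ligands, other receptor subunits, kinases and transducers. Of these, 56 genes had a tested probe, with the brightest standing for the gene. None of the 56 had q under 0.1 in limma, against 6.25% of all 22454 genes tested, and 9 had an unadjusted p under 0.05, against 20.3% of all. A difference above 0 was found for 34 and below 0 for 22, with a median of 0.06, where 47.1% of all genes were above 0. The groups overlapped for every gene of the list, and did not for 14.3% of all genes.

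Of 23 ligands only 10 were tested. The ligands of the common β chain, *Csf2*, *Il3* and *Il5*, were not, nor were *Il6*, *Osm*, *Il4*, *Il10*, *Il17a*, *Il17f*, *Il17c*, *Il25*, *Il1a* and *Il1b*, because they were above background on fewer than 4 arrays. *Il13* differed by 0.25 (q = 0.432) and *Il27*, which signals through gp130, by −0.16 (q = 0.328), the largest differences among ligands above background on all 8 arrays. *Il13* ran from 0.14 without Pg 2 to 0.43 without Pg 4, and with normexp (0.11), with the median signal (0.06) and in the deposited log2 values (0.13) it was smaller than *Il27*, at −0.17, −0.14 and −0.15. Of 28 other receptor subunits 24 were tested, 15 with a difference above 0 and 9 below. The largest, again among genes above background on all 8 arrays, were *Il1r2*, the decoy receptor of IL-1, with 0.46 (q = 0.398) by its brightest probe but −0.12 (q = 0.762) with the probes of its accession averaged, and *Il10ra*, the private chain of the IL-10 receptor, with 0.43 (q = 0.547). Single arrays moved both, *Il1r2* from 0.23 without Pg 2 to 0.72 without Pg 4 and *Il10ra* from 0.19 without Pg 2 to 0.78 without Pg 3. *Il10ra* was highest on Pg 2 and Pg 4, at 7.09 and 7.02, and lowest on Pg 3, at 5.32, the order seen in *Csf2ra* and the macrophage sum.

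All 22 kinases and transducers were tested, 14 with a difference above 0 and 8 below. By the same rule the largest were *Stat5a*, which carries the signal of the common β chain, with 0.45 (0.07 to 0.83, q = 0.162), and *Stat2*, which serves the interferon receptors, with 0.42 (0.07 to 0.77, q = 0.156). The size of the *Stat5a* difference depended on the processing, from 0.52 (q = 0.0984) with normexp to 0.18 (q = 0.301) in the deposited log2 values and 0.12 (q = 0.515) with the probes of its accession averaged. *Stat3*, the main STAT of gp130, differed by 0.18 (−0.04 to 0.41, q = 0.310) and *Stat6*, that of the IL-4 receptor, by −0.04 (−0.27 to 0.19, q = 0.844); these 2 were named for their role in the receptors above, after their values were seen.

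**Figure D5:**
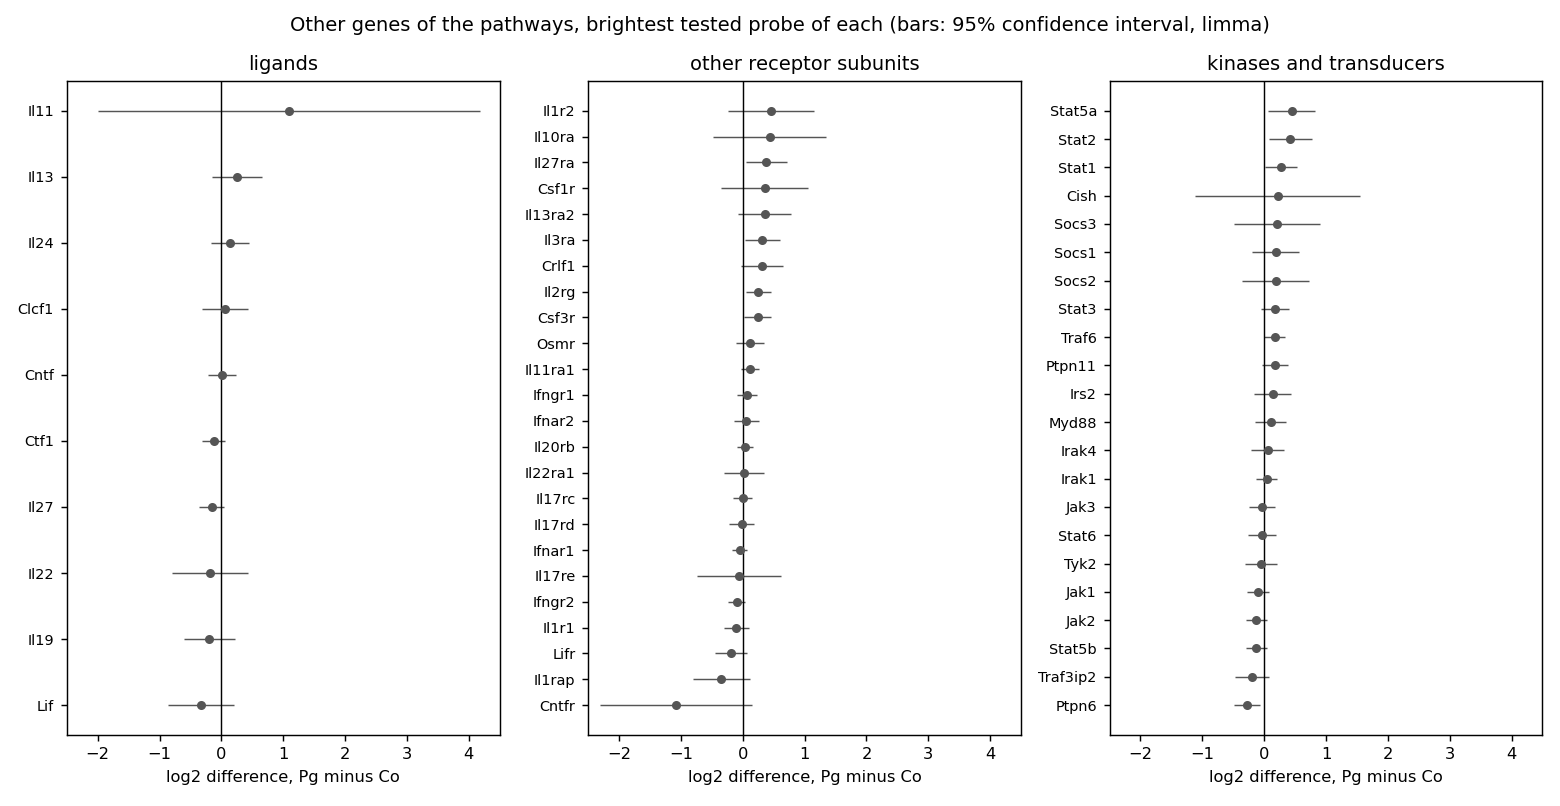
Log2 difference, Pg minus Co (x axis), of the brightest tested probe of 10 ligands, 24 other receptor subunits and 22 kinases and transducers, with 95% confidence intervals from limma. None of the 56 genes had q under 0.1, and most points lie within 0.5 of 0.

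Markers of other cells that could carry these receptors were read beside them. The summed signal of 8 neutrophil markers was between 40040 and 50120 on the Co arrays and between 47490 and 54980 on the Pg arrays. Pearson r of the receptor probes with its log2 ran from −0.79 for *Il17ra*, near the limit of detection, to 0.492 for the 3′ probe of *Il4ra*. It was −0.732 for the *Il6st* probe A_51_P473888 and −0.72 for the 5′ probe of *Csf2rb*. This sum was carried almost wholly by *Csf3r*, with a mean log2 signal of 15.52, and 3 of the 8 were not tested. Of the others, *S100a8* differed by 2.16 (q = 0.132) and *S100a9* by 2.04 (q = 0.195), while *Ly6g* differed by 0.09 (q = 0.731), *Mmp8* by 0.16 (q = 0.650) and *Ngp* was above background on no array. The median of the 5 tested was 0.24. The endothelial sum was between 8645 and 10960 on the Co arrays and between 10790 and 12150 on the Pg arrays, and *Kdr*, the VEGF receptor, was higher in Pg mice by 0.57 (q = 0.0573), the 1 marker of all lists with q under 0.1. Of the 5 endothelial genes 3 had a difference above 0, and *Pecam1* (−0.20, q = 0.151) and *Tek* (−0.14, q = 0.440) had one below. The eosinophil genes *Siglecf*, *Ccr3*, *Prg2* and *Epx*, which mark cells that use the IL-5 receptor, were above background on no array, as was *Cd3g*. The mast cell genes of the same list were detected, *Mcpt4* and *Fcer1a* on all 8 arrays and *Cpa3* on 7. They differed by −0.06 (q = 0.944), 0.18 (q = 0.492) and −0.59 (q = 0.550). Of 7 T and B cell markers 3 were above background on all arrays, with sums between 1585 and 1815 on the Co arrays and between 1581 and 1773 on the Pg arrays. The part of these cells in the receptor values was not tested.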

How the data were processed

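Per the labels, the arrays were read with Agilent Feature Extraction 11.0.1.1. The authors deposited the scanner output with the Cy3 intensity of each spot (background-subtracted, not normalized between arrays) and normalized log2 values with their own fold changes, p-values and q-values, which were not used. The deposited log2 values were taken to be means over the probes of an accession.

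Repeated spots were averaged without population outliers, and the processed intensities were quantile-normalized over the 8 arrays, set to at least 1 and put on a log2 scale in R 4.3.3 with the data.table package, version 1.17.8. Probes well above background on at least 4 arrays (33819 of 56605) entered a linear model in limma 3.58.1 (lmFit, eBayes), and two-sided p-values were adjusted over all of them by the method of Benjamini and Hochberg. Scripts were tested on simulated data. Probe gaps were compared with exact permutation tests. Precision is limited by the number of arrays. The p-values measure the spread between the 4 arrays of a group.

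The 10 genes, the wider list, the marker lists and the tests were chosen with earlier results of these data known. Named were all probes of the 10 genes, the 2 largest differences in each role of the wider list among genes above background on all arrays, the 5 probes most like *Csf2rb* and *Il6st*, and the markers. Gene names of the wider list were updated through RefSeq accessions for 32994 probes. Alternatives were other background steps, normalizations, filters, spread models, the replicate number as a block, the deposited log2 values and leaving out each array. The probe gaps and the averaging of probes were added after seeing the data.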

Additional observations from a re-analysis of the deposited data

Results flagged for a closer look

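In 36 groups of 4 arrays (18 probes in both groups) a single array stood apart from the other 3 of its group by more than the 95% limit of Dixon's test in 3 cases, and chance alone marks about 1 group in 20. The 3′ probe of *Csf2rb* (A_52_P52618) read 6.53 on Pg 3, where the other Pg arrays read 7.41 to 7.46. The *Il6st* probe A_55_P2738837 read 2.83 on Co 4 against 2.08 to 2.19 on the other Co arrays, and the *Il1rn* probe A_55_P1962400 read 3.20 on Pg 3 against 2.10 to 2.14 on the other Pg arrays. Both of these probes were below background on every array.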

How the results depend on the processing

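Over the alternatives, 200 of 221 values of the member probes kept their direction and their side of q = 0.1, 9 gained the call, 10 lost it and 2 turned sign. Those were the *Il6st* probe A_55_P2917440, which leaving out 1 array moved between −0.01284 (without Pg replicate 2) and 0.2099 (main value 0.10), and the mean of the *Il6st* probes, at −0.01638 in the deposited log2 values (main value 0.01). *Il1r2* turned to −0.12 when the probes of its accession were averaged, so its probes disagree.

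Member DEGs (1) numbered 0 with normexp, 75th percentile scaling, no normalization, no filter, the deposited values and averaged probes, and 2 with the all-array filter and the intensity trend. With the median signal there was also 1, but it was the *Csf2rb* probe A_52_P52618, higher in Pg mice. Members with q under 0.1 (1) numbered 3 under each of the trend, the median signal and normexp, 2 with the all-array filter, and 0 with 75th percentile scaling, no normalization, no filter and the deposited values. The wider list (0) gave 3 genes with normexp and 1 with the median signal. Leaving out 1 array gave 0 to 2 member DEGs, 0 to 3 members with q under 0.1 and 0 to 3 genes of the wider list, each highest without Pg replicate 3.

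Over all probes, the DEGs (546; 106 higher and 440 lower) were 94 with normexp (66 and 28), 108 with the median signal (75 and 33), 283 with 75th percentile scaling (137 and 146), 27 without normalization (20 and 7), 318 with the all-array filter, 106 in the deposited values (60 and 46) and 341 with averaged probes. Those with q under 0.1 (2644) were 1546 with 75th percentile scaling, 29 without normalization, 1269 without a filter, 1715 in the deposited values and 1487 with averaged probes. Leaving out 1 array gave 2 to 692 DEGs and 2 to 2414 probes with q under 0.1. Without Co replicate 3 only 2 probes were called. The cause was not tested.

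With the replicate block, the number that is also the slide column, 0 probes were called over the array (0 DEGs, 0 with q under 0.1), 0 among the members and 0 in the wider list, and the *Il6ra* probe A_51_P415855 had q = 0.153. Deviations of same-numbered arrays correlated at 0.0589, −0.027, −0.0684 and 0.178, so the numbers were not taken as pairs.

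Of 72 values of the probe gaps 63 (exact permutation test) stayed on their side of 0.05 and 9 did not. For *Il6ra* the gap was −0.14 with normexp, −0.15 when the median signal was used, and −0.36 under 75th percentile scaling and without normalization. With normexp and the median signal the *Csf2rb* gap was −0.63 and −0.67 and the *Il4ra* gap −0.41 and −0.41. Leaving out 1 array moved the *Il6ra* gap between −0.60 and −0.40, with 4 of 8 past the threshold, the *Il4ra* gap between −0.81 and −0.56 (lost without Co replicate 2), and the *Csf2rb* gap between −1.13 and −0.93 (kept in all 8).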
